A study of Homo sapiens with 6 samples.

Results

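The interferon-stimulated and double-stranded RNA sensing genes described here are IFI44, SAMD9L, IRF1, IFIT1, RIGI and EIF2AK2, 6 of the 14884 genes with a named probe set. They were chosen because their levels differed between 3 arrays from HK2 cells with a lentiviral shRNA against PGC-1alpha (pLKO.1 vector) and 3 arrays from HK2 cells with the same vector carrying an shRNA against GFP, and because they differed in opposite directions. Their differences in this contrast are therefore a description and carry no test. HK2 is an established human kidney line labelled as proximal tubule epithelium, the part of the nephron that takes back most of the filtered solute. The gene PPARGC1A encodes PGC-1alpha, which coactivates transcription of genes for mitochondrial biogenesis, and human cells have no GFP gene. Both groups were transduced and selected with puromycin, and total RNA was taken on day 5, when selection had been off for 24 hours. The control cells thus also carried a lentivirus and a short hairpin RNA, and no untransduced cells were among the samples.

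Cells detect viral RNA with dedicated proteins. RIGI and its relative IFIH1 (MDA5) bind double-stranded RNA in the cytosol and signal through the adaptor MAVS. TLR3 binds such RNA in endosomes, and EIF2AK2 (PKR) stops translation by phosphorylating eIF2alpha. These routes induce interferons, whose receptors act through JAK kinases and IRF9 on the interferon-stimulated response element (ISRE), while interferon gamma acts through the gamma-activated site (GAS). The genes so induced include effectors such as the IFIT proteins, which bind viral RNA, and the sensors themselves. IRF1, a transcription factor, is induced by interferon gamma and also by NF-kB.

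Promoter sequences are shown first, for the letters of these elements. RefSeq windows of GRCh38.p14, from 250 bases before to 50 after each annotated start, were searched on both strands for the ISRE core (GAAA, any 2 bases, GAAA), the GAS (TTC, any 3 bases, GAA) and the consensus NF-kB site. Of 35116 windows of this length, 3.57% held the ISRE core, 7.66% the GAS and 5.91% the NF-kB site. All 6 genes had a window, and 3 of them held an ISRE core: IFI44 once, IFIT1 in 2 copies and EIF2AK2 once, across its start. IFI44 has 2 annotated starts, and the same match lies before both. IRF1 held a GAS from base -124 to -116 and an NF-kB site from -50 to -41, RIGI held an NF-kB site from -76 to -67, and the SAMD9L window held none of the 3 patterns. The stretches below show these matches in capitals, 5′ to 3′ on the gene's strand, followed by 3 relatives whose levels are set against the members further on: IFIH1, SAMD9 and IFIT5.
IFI44, chr1:78649689-78649788, plus strand: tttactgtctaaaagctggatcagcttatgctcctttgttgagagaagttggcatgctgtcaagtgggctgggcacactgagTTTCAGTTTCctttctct
IFIT1, chr10:89392473-89392572, plus strand: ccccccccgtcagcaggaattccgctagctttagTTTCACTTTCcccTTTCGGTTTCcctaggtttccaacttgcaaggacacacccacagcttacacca
EIF2AK2, chr2:37156977-37157076, minus strand: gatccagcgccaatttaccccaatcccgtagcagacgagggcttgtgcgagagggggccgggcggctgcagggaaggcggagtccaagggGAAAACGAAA
IRF1, chr5:132490804-132490923, minus strand: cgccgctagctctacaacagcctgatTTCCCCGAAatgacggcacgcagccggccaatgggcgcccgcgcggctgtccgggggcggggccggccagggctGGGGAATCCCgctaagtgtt
RIGI, chr9:32526223-32526322, minus strand: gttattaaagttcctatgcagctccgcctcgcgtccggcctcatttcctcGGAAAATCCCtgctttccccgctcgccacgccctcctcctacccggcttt
IFIH1, chr2:162318695-162318854, minus strand: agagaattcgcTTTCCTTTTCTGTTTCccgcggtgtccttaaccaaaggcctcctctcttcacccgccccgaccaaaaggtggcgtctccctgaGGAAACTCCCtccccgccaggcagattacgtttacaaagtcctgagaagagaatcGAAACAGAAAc
SAMD9, chr7:93118080-93118139, minus strand: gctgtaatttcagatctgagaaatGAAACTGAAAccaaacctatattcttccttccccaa
IFIT5, chr10:89414508-89414574, plus strand: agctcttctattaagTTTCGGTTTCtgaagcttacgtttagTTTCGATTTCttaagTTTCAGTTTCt
In the IFIH1 stretch 2 of the 3 ISRE cores share bases and the remaining capitals before the last run are its NF-kB site. Matches of different patterns shared bases in 3 places in the windows of the listed genes and in 0 in those of the members. A match describes letters and was not tested as a binding site. The genes that were higher with the shRNA against PGC-1alpha and those that were lower each included windows with and without an ISRE core.

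**Figure D1:**
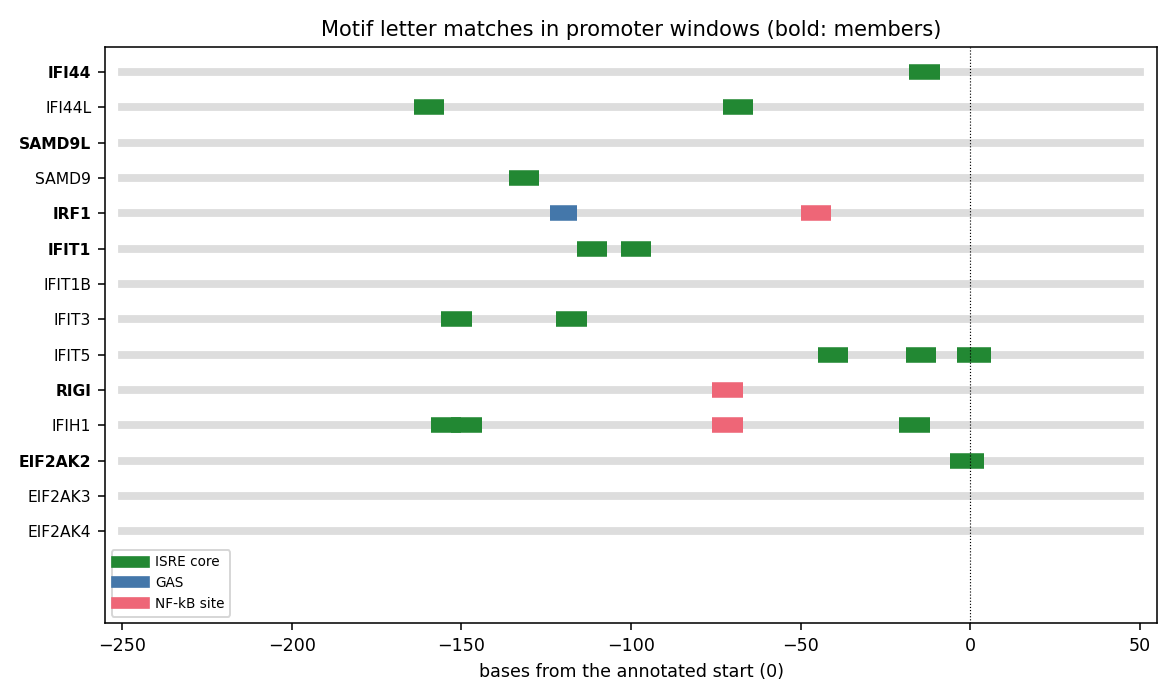
Positions of motif matches (x axis, bases from the annotated start; y axis, genes, members in bold) in promoter windows, using the start with the lowest coordinate where a gene has several. Shown are the members and the relatives with a window, except the relatives of IRF1. IFI44, IFIT1 and EIF2AK2 held an ISRE core (green), IRF1 a GAS (blue) and an NF-kB site (red), RIGI an NF-kB site and SAMD9L none.

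The arrays had median log2 RMA values of 5.00 to 5.04, and having 3 arrays in each group limits the precision: the smallest p of an exact permutation test would be 0.1. The labels call the arrays of a group biological replicates 1 to 3 and do not say whether the cultures were transduced separately, so a p-value here covers the spread among these samples only. PPARGC1A had no probe set named here, so its level was not analysed. Of 12 proximal tubule markers 5 were named: the transcription factor PAX8 was at 11.44 in the controls and 11.82 with the shRNA against PGC-1alpha, AQP1 at 5.97 in both, ANPEP at 4.56 and 4.72, and the endocytic receptors LRP2 and CUBN at 3.94 and 3.95 in the controls, below 4.43, the 20th percentile of all gene means. Of these 5, PAX8 rose, by 0.38 (limma adjusted p 0.0064), and some other markers also moved with the groups. Among all genes 21.8% passed the limma threshold used below. Of 5 measured epithelial markers 3 fell, with log2 differences of -1.42 for KRT19, -0.73 for EPCAM and -0.31 for KRT18, and the sum of the 5 log2 values went from 39.2 to 39.8 in the controls to 36.2 to 37.1. Both measured fibroblast markers, LUM and DCN, rose by 0.76 and 0.83, with sums of 12.3 to 12.4 and 13.8 to 14.1. Of 4 leukocyte markers CD68 rose by 0.34, with sums of 24.9 to 25.5 and 25.4 to 25.9, CD14 and LYZ stayed between 3.52 and 4.60, and NKG7 was at 6.12 and 6.07. Their part in the results below was not tested, and in RNA from whole cultures fewer cells of a kind cannot be told apart from less RNA per cell.

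Among the members, the effectors IFI44 and SAMD9L and the factor IRF1 were higher with the shRNA against PGC-1alpha. IFI44, a cytoplasmic protein induced by type I interferon, was at 5.16, 4.94 and 4.97 in the control arrays and at 6.39, 6.32 and 5.70 in the shPGC-1alpha arrays. Every shPGC-1alpha array lay above every control array, but replicate 3 lay well below the other shPGC-1alpha arrays. The means were 5.02 ± 0.12 (SD, n = 3) and 6.14 ± 0.38, which is 1.12 log2 units or 2.17-fold, and the difference was 1.33 with that array left out.

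SAMD9L, an inhibitor of translation and of virus replication, varied least among the members. The control arrays read 5.69, 5.70 and 5.70, and the shPGC-1alpha arrays 6.57, 6.44 and 6.43. The groups were separated by 0.73 log2 units, against a range of 0.13 within the shPGC-1alpha arrays. The means of 5.70 ± 0.0061 (SD, n = 3) and 6.48 ± 0.07 were 0.78 log2 units or 1.72-fold apart.

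IRF1 was at 6.65, 6.91 and 6.83 in the control arrays and at 7.39, 7.31 and 7.32 in the shPGC-1alpha arrays. Here the control arrays varied more, over 0.26 log2 units, and the nearest arrays of the groups were 0.40 apart. The means were 6.80 ± 0.13 (SD, n = 3) and 7.34 ± 0.04, a log2 difference of 0.54 or 1.45-fold.

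IFIT1, which binds viral RNA that lacks the host's cap methylation, showed the largest difference of the 6 and in the other direction. It was at 5.02, 5.10 and 5.18 in the control arrays and at 3.87, 3.78 and 3.85 in the shPGC-1alpha arrays. The groups were 1.14 log2 units apart at their nearest arrays, against ranges of 0.17 within the controls and 0.09 within the shPGC-1alpha arrays. The shPGC-1alpha mean, 3.83 ± 0.05 (SD, n = 3), was 2.41-fold lower than the control mean, 5.10 ± 0.08, at a log2 difference of -1.27. The lower mean lies under 4.43, the 20th percentile of gene means, and differences of such dim probe sets are less certain.

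The 2 double-stranded RNA sensors among the members were also lower. RIGI was at 7.12, 7.23 and 7.34 in the control arrays and at 6.70, 6.63 and 6.62 in the shPGC-1alpha arrays. The groups did not overlap, and the means of 7.23 ± 0.11 (SD, n = 3) and 6.65 ± 0.04 differed by -0.58 or 1.49-fold. EIF2AK2 was at 9.69, 9.74 and 9.72 in the control arrays and at 9.29, 9.39 and 9.19 in the shPGC-1alpha arrays. Its groups lay closest of the 6, at 0.29 log2 units between the nearest arrays, with means of 9.72 ± 0.03 and 9.29 ± 0.10, a log2 difference of -0.42 or 1.34-fold. In all 6 members the 2 groups were separate. So they were in 38.7% of all 14884 genes, and the members were picked on this contrast, so nothing is read from that count.

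**Figure D2:**
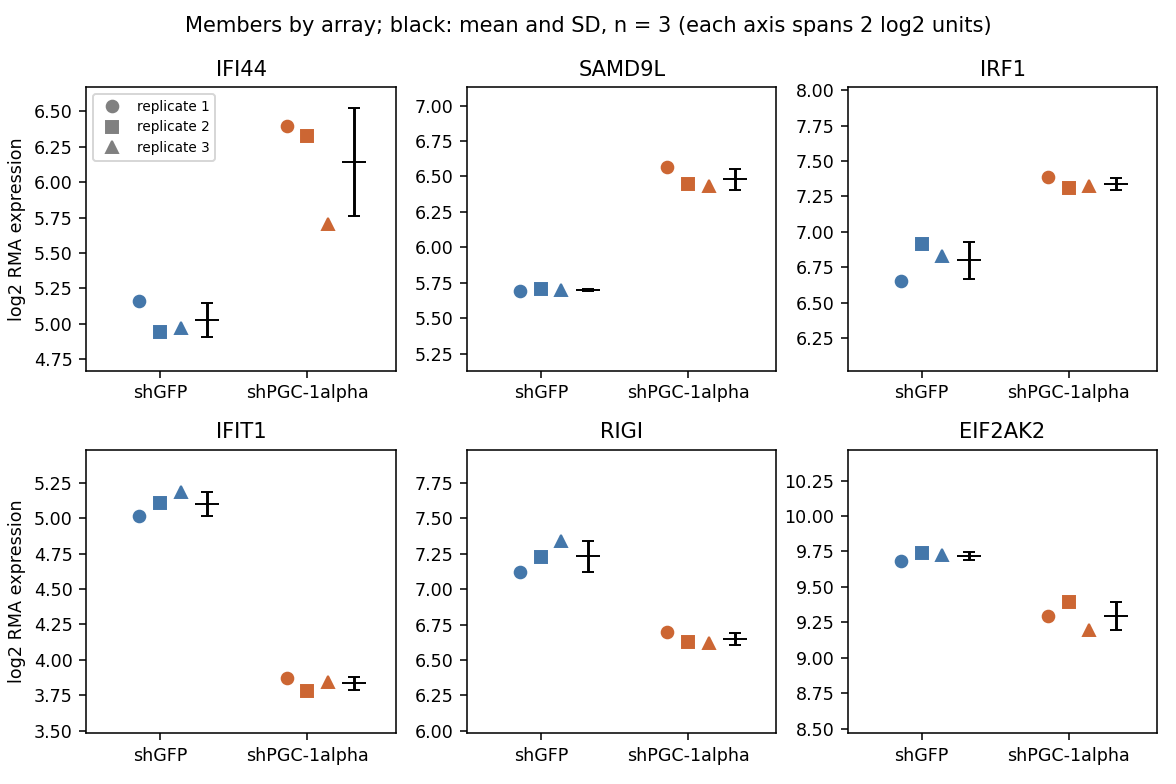
Log2 RMA expression (y axis, each panel spanning 2 log2 units) of the 6 members in the shGFP (blue) and shPGC-1alpha (orange) arrays, with replicate numbers as symbols and the mean and SD of 3 arrays in black. IFI44, SAMD9L and IRF1 sit higher and IFIT1, RIGI and EIF2AK2 lower in shPGC-1alpha, and IFI44 replicate 3 at 5.70 lies apart from 6.32 and 6.39.

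The nearest sequence relatives of the members did not all move with them. Differences of relatives were tested with limma across all 14884 genes, with p adjusted by the Benjamini-Hochberg method, and 21.8% of all genes passed the threshold of 0.05. Of 18 measured relatives 2 rose, 2 fell and 14 did not pass, 22.2% in all, a share near that background, and their median log2 difference was 0.00 against -0.016 for all genes.

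IFIT2, a relative of IFIT1 in the IFIT cluster on chromosome 10, fell as well. Its control arrays read 5.54, 5.64 and 5.68 and its shPGC-1alpha arrays 5.23, 4.50 and 4.97, so the groups did not overlap and the second group was widely spread. The log2 difference was -0.72 (SE 0.17, limma adjusted p 0.024). It no longer passed when shGFP replicate 1, 2 or 3 was left out (limma adjusted p 0.0541, 0.069 and 0.0727) or shPGC-1alpha replicate 3 (0.0624). The other genes of the cluster did not pass. IFIT3, whose protein stabilises IFIT1, was at -0.14 (SE 0.10, limma adjusted p 0.382). IFIT5, whose promoter stretch is printed above with its 3 ISRE cores, was at -0.26 (SE 0.10, limma adjusted p 0.117), and it passed without shPGC-1alpha replicate 1 (0.0477). IFIT1B was at 0.36 (SE 0.13, limma adjusted p 0.110).

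IFI44L, which lies next to IFI44 on chromosome 1, was at 6.12, 6.22 and 6.33 in the control arrays and at 6.54, 6.36 and 6.08 in the shPGC-1alpha arrays. These groups overlapped, and the log2 difference of 0.10 (SE 0.12, limma adjusted p 0.624) is small beside the 1.12 of IFI44. SAMD9, next to SAMD9L on chromosome 7, was at 0.20 (SE 0.12, limma adjusted p 0.283), beside 0.78 for SAMD9L. Whether the differences of such pairs are themselves different was not tested, because 1 gene of each pair was chosen on this contrast.

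The RIGI family held differences in both directions. IFIH1, which senses longer double-stranded RNA than RIGI, was at 5.18, 5.37 and 5.39 in the control arrays and at 5.70, 5.59 and 5.58 in the shPGC-1alpha arrays. It rose by 0.31 (SE 0.08, limma adjusted p 0.033), opposite in direction to RIGI, at -0.58. The call of IFIH1 was close to the threshold and was lost with any 1 of the 6 arrays left out: without shGFP replicate 1, 2 and 3 the limma adjusted p was 0.0777, 0.0633 and 0.0538, and without shPGC-1alpha replicate 1, 2 and 3 it was 0.0964, 0.0695 and 0.0634. DHX58 (LGP2), which modulates both sensors, was at -0.14 (SE 0.09, limma adjusted p 0.333).

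The other kinases of eIF2alpha did not pass. The heme-regulated EIF2AK1 was at -0.24 (SE 0.07, limma adjusted p 0.062), with groups that did not overlap, beside -0.42 for EIF2AK2, and it passed among genes above the 20th percentile (0.0389). The endoplasmic reticulum kinase EIF2AK3 was at 0.06 (SE 0.08) and the amino acid sensor EIF2AK4 at -0.03 (SE 0.06).

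Among the other interferon regulatory factors, IRF2 rose, IRF5 fell and 5 did not pass. IRF2, which binds the same element as IRF1 and is known to oppose it at many promoters, was at 9.08, 8.94 and 8.97 in the control arrays and at 9.85, 9.82 and 9.88 in the shPGC-1alpha arrays. Its log2 difference was 0.85 (SE 0.07, limma adjusted p 0.00024). IRF5, a factor of Toll-like receptor signalling, fell by 0.43 (SE 0.09, limma adjusted p 0.013), from 6.12 ± 0.02 (SD, n = 3) to 5.69 ± 0.15. IRF3 and IRF7, which turn on interferon genes after RNA sensing, were at -0.08 (SE 0.07) and -0.02 (SE 0.07), and IRF9, the DNA-binding part of the type I interferon complex, at 0.02 (SE 0.07). IRF4 and IRF8, factors of blood cells, were at 0.05 (SE 0.14) and 0.12 (SE 0.12).

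**Figure D3:**
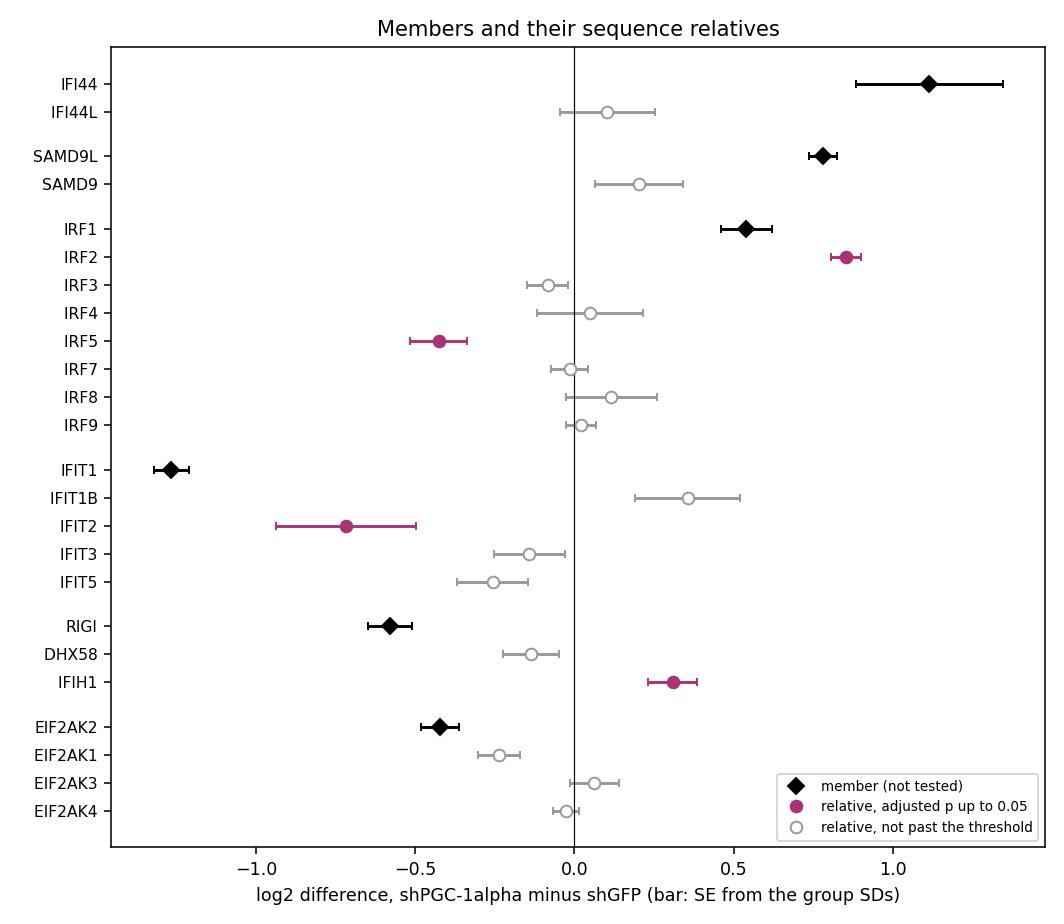
Log2 differences (x axis, shPGC-1alpha minus shGFP; bars, SE from the SDs of 3 arrays per group) of the 6 members (black diamonds, not tested) and their sequence relatives (circles, filled in purple where the limma adjusted p was 0.05 or lower). IFIT2 lies low with IFIT1, IFIH1 lies opposite to RIGI, and IFI44L and SAMD9 lie near 0.

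The wider interferon system was read through 8 lists with 202 genes, of which 103 were measured and 97 were not members. Of these 97 genes 17 rose, 6 fell and 74 did not pass, so 23.7% were called against 21.8% of all genes. By direction 17.5% rose and 6.19% fell, against 9.58% and 12.2% of all genes. Their median log2 difference was 0.05, against -0.016 over all genes. The lists were chosen with earlier results of these data known, so these shares and those by list below are a description. Without shGFP replicate 1 or 2 the count that fell was 3. The antiviral effectors held 2 of the genes that rose and 3 of those that fell.

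Both measured interferon receptor genes rose, where 9.58% of all genes did, and 2 genes are too few to read a share. They encode the 2 chains of the interferon gamma receptor. IFNGR2 was at 6.92, 6.88 and 6.83 in the control arrays and at 7.97, 7.95 and 7.87 in the shPGC-1alpha arrays, a log2 difference of 1.05 (SE 0.06, limma adjusted p 0.0001). IFNGR1 went from 6.39 ± 0.17 (SD, n = 3) to 7.38 ± 0.07, a difference of 0.99 (SE 0.10, limma adjusted p 0.00059). The other 26 listed ligands and receptors, the type I and type III interferons among them, had no probe set named here.

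In signalling, 3 of 13 non-members rose and 1 fell, 30.8% called against 21.8% of all genes. JAK1, a kinase of all interferon receptors, rose by 0.54 (SE 0.06), and IRF2BP2, a corepressor named for binding IRF2, by 0.91 (SE 0.08), besides IRF2. A second, dimmer probe set of IRF2BP2 read 0.13. Among 4 feedback inhibitors 2 rose, 50% called against 21.8% of all genes. SOCS3 rose by 0.94 (SE 0.10, limma adjusted p 0.0008) and SOCS1, which blocks JAK kinases, by 0.88 (SE 0.11, limma adjusted p 0.0014). For SOCS3 a dimmer probe set read 0.44. USP18, an interferon-induced inhibitor of the type I receptor, was at 0.08 (SE 0.09) and UBA7, the enzyme that activates ISG15, at 0.04 (SE 0.07), neither past the threshold.

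Of 19 other sensors and adaptors 4 rose and 2 fell, 31.6% called against 21.8% of all genes. TLR3 was at 6.85, 7.02 and 6.98 in the control arrays and at 8.07, 8.11 and 7.79 in the shPGC-1alpha arrays, so every shPGC-1alpha array of this endosomal sensor lay above every control array. Its log2 difference was 1.04 (SE 0.10, limma adjusted p 0.00055). TRIM25, a ubiquitin ligase known for acting on RIGI, rose by 0.67 (SE 0.07, limma adjusted p 0.00068), whereas RNF135 (RIPLET), another ligase of RIGI, fell by 0.24 (SE 0.07, limma adjusted p 0.043). The call of RNF135 was lost without shGFP replicate 2 or 3 (0.136 and 0.132), without shPGC-1alpha replicate 1, 2 or 3 (0.0983, 0.0752 and 0.111), and with the arrays centred on their medians (0.0855) or normalised by quantiles again (0.0943).

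The kinase TBK1, which phosphorylates IRF3, rose by 0.30 (SE 0.07, limma adjusted p 0.028). That call was lost without shGFP replicate 1, 2 or 3 (0.0763, 0.0565 and 0.0909) and without shPGC-1alpha replicate 1 or 2 (0.0808 and 0.088). DDX60L, a helicase-like relative of the antiviral DDX60, fell by 0.41 (SE 0.09, limma adjusted p 0.018), and its call was lost without shGFP replicate 1 (0.0535). The adaptor MAVS was at -0.06 (SE 0.08) and did not pass. TRAF3, at 0.21 (SE 0.07, limma adjusted p 0.073), and the DNA sensor CGAS, at -0.22 (SE 0.08, limma adjusted p 0.084), did not pass either, and TRAF3 passed with the arrays centred on their medians (0.0316).

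Of 40 measured effectors other than the members, 2 rose, 3 fell and 35 did not pass, with a median difference of -0.04. That is 12.5% called, against 21.8% of all genes. The share is lowered by leaving out the 3 members of this list, which were picked because they differed. At an unadjusted limma p under 0.05 there were 13 of the 40, and 33.4% of all genes. The scramblase PLSCR1 rose by 0.70 (SE 0.08, limma adjusted p 0.0011) and SLFN5, a Schlafen family protein, by 0.47 (SE 0.06, limma adjusted p 0.0022). HERC5, the ligase that attaches ISG15 to proteins, was at 8.01, 8.01 and 7.84 in the control arrays and at 7.52, 7.51 and 7.50 in the shPGC-1alpha arrays and fell by 0.44 (SE 0.07, limma adjusted p 0.0048). IFITM1, which blocks virus entry at the membrane, fell by 0.67 (SE 0.15, limma adjusted p 0.017), and did not pass with shGFP replicate 1 or 2 (0.0567 and 0.0604) or shPGC-1alpha replicate 2 (0.0592) left out. IFIT2, given above, was the third. DTX3L, RNF213 and PNPT1, the 3 with the highest means that did not pass, were at 0.06, 0.10 and 0.20. Some genes often used as readouts of interferon were picked after their values were seen, so nothing is read from them as a group. ISG15 was at 0.05 (SE 0.08), MX2 at 0.07 (SE 0.07), RSAD2 at 0.19 (SE 0.15) and OASL at 0.03 (SE 0.14), none past the threshold. The mean of RSAD2 over the arrays, 4.37, lies under the 20th percentile.

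Of 11 measured targets of interferon gamma besides IRF1, 5 rose and 0 fell by limma, 45.5% called against 21.8% of all genes. The median was 0.31, the value of CXCL11, and the lowest difference was -0.34, for GBP5, which did not pass. The means of 5 of the 11 lie under the 20th percentile, those of CXCL11 and GBP5 among them. At an unadjusted p under 0.05 there were 6 of the 11, and 33.4% of all genes. ICAM1, an adhesion molecule that NF-kB also induces, rose by 1.07 (SE 0.06), the guanylate-binding protein GBP3 by 0.77 (SE 0.08) and the tryptophan tRNA synthetase WARS1 by 0.54 (SE 0.06). A dimmer probe set of WARS1 read 0.14. SOCS1 is counted here too. The chemokine CXCL10 rose by 0.44 (SE 0.09, limma adjusted p 0.014), but its means of 2.74 and 3.18 lie under the 20th percentile. CD274 (PD-L1), at 0.01 (SE 0.13), ETV7, at -0.10 (SE 0.14), and CXCL11, at 0.31 (SE 0.21) and at 0.044 without shGFP replicate 2, did not pass. In antigen presentation 0 of 5 measured genes passed by limma, with 2 at an unadjusted p under 0.05. B2M was at 0.17 (SE 0.06, limma adjusted p 0.098) and passed with the arrays centred on their medians (0.0406), TAPBP was at -0.04 (SE 0.06) and ERAP2 at 0.07 (SE 0.08).

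**Figure D4:**
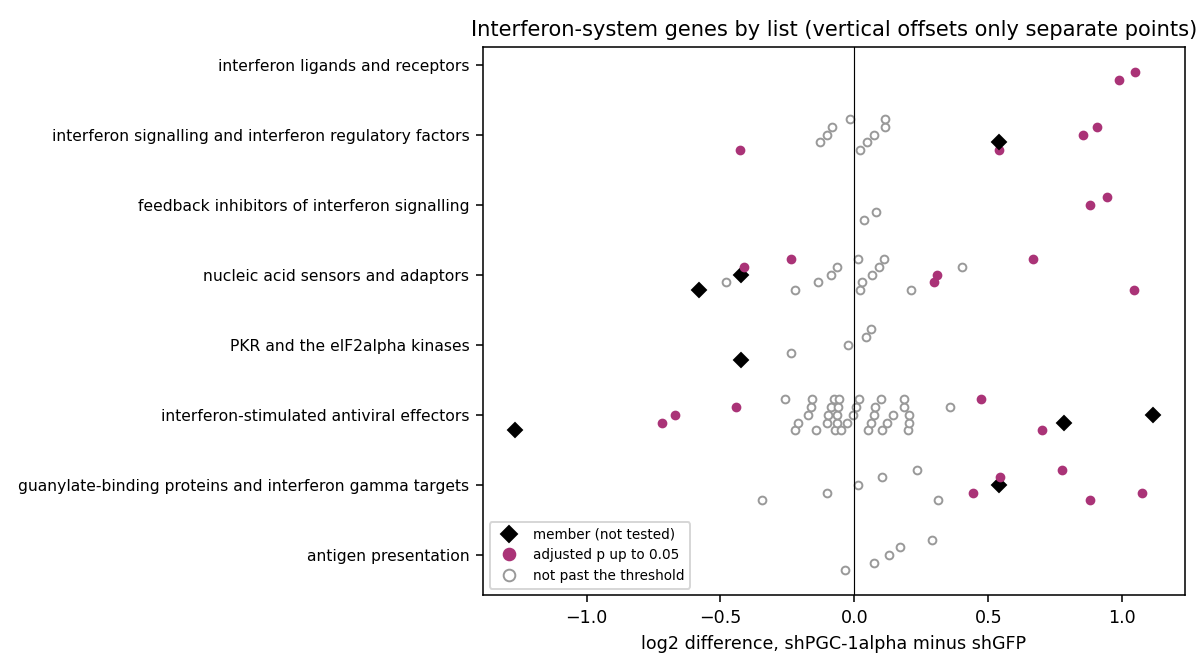
Log2 differences (x axis, shPGC-1alpha minus shGFP) of the measured genes of 8 interferon-system lists (y axis), with members as black diamonds (not tested), genes with a limma adjusted p of 0.05 or lower in purple and others open. Both interferon gamma receptor genes lie near 1. Of the 40 effectors besides the members, 35 lie between -0.26 and 0.36 and did not pass. Thus 12.5% were called, against 21.8% of all genes, a share lowered by leaving out 3 members picked because they differed.

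The protein-coding genes whose centred profiles lay nearest to each member over the 6 arrays were found by Euclidean distance in log2 units, as a description. Nearest to IFI44 were IL1RAP, C9orf72 and CADM1, at distances of 0.36, 0.40 and 0.41, which are larger than those of the other members. Nearest to SAMD9L were GPR180, KLHL20 and YOD1, at 0.050, 0.060 and 0.088. MICB, a stress-induced ligand of natural killer cells, was nearest to IRF1 at 0.066, followed by CENPN and FJX1 at 0.11. FAXC, FERMT1 and SPIN1 were nearest to IFIT1 at 0.12, 0.16 and 0.16. RIGI was nearest to RNF207, ANGEL2 and PKP2, at 0.084, 0.11 and 0.11, and EIF2AK2 to AUH, TOP2B and HMCES, at 0.064, 0.072 and 0.076. None of these 18 genes is in the 8 lists, but the lists hold only 97 of the 14884 genes besides the members, so nothing is read from that. With 3 arrays a group such profiles mostly reflect the difference between the groups.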

How the data were processed

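Biotin-labelled RNA of each HK2 sample was hybridised to 1 Affymetrix array. The authors deposited log2 values for 53617 probe sets, made with RMA in Affymetrix Expression Console per the submitters' processing notes, without versions; the genome build is not stated in the sources used here. RMA equalises the arrays' distributions, which would reduce a shift of most transcripts. The values were used as deposited. Of the probe sets, 16098 had 1 symbol in the platform annotation, 0 had several and 37519 had none. All 16098 matched RefSeq gene identifiers (GRCh38.p14), and the highest-mean probe set stood for each of 14884 genes. Each of the 6 members had 1 probe set.

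The comparison used R 4.3.3 and limma 3.58.1 (lmFit, eBayes, no filter, no block), with Benjamini-Hochberg adjustment over all genes and a threshold of 0.05, after a test on simulated data. Motifs were searched with Python 3.11.15. The members and lists were chosen with earlier results of these data known. Named are the members, their relatives, up to 6 called and 3 uncalled genes (smallest p, highest mean) per list, and the 3 nearest profiles per member. Other names were chosen after their values were seen. Alternatives left out each array, added the replicate number as a block, or changed the probe set, scaling, filter or variance model.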

Additional observations from a re-analysis of the deposited data

How the results depend on the processing

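The 6 members kept their direction under every alternative run, with each moving by less than its SD between replicates. With 1 array left out, the log2 difference ranged from 0.99 to 1.33 for IFI44, from 0.74 to 0.81 for SAMD9L, from 0.47 to 0.60 for IRF1, from -1.31 to -1.23 for IFIT1, from -0.63 to -0.52 for RIGI and from -0.47 to -0.37 for EIF2AK2. The count of other interferon-system genes that fell, 6, was 3 without shGFP replicate 1 or 2 and ranged from 3 to 7 with 1 array left out, and it was 12 under eBayes with trend and robust settings. The count that rose, 17, ranged from 15 to 17 with 1 array left out and from 16 to 22 otherwise, and that of all genes, 3243, from 2328 to 2578 and from 2773 to 3970.

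Same-numbered arrays of the groups deviated together at r = 0.12, 0.087 and 0.023 for replicates 1, 2 and 3. Of the 6 arrays 5 correlated best with their own number. Whether a shared number marks a pair is not known. The main fit had no block, and the fit with a block is given next. With the replicate number as a block, 2773 genes passed, and of the other interferon-system genes 16 rose and 6 fell. The calls of IFIH1 (limma adjusted p 0.0771) and RNF135 (0.0788) then did not pass. CGAS, EIF2AK1, PNPT1, TRAF3, B2M and IFIT5 passed only under some alternatives, each of them under the trend and robust setting. Values under the 20th percentile limit IFIT1, IFIT1B, CXCL10, CXCL11, GBP5 and RSAD2.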

Other observations

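The other genes of the 8 lists were also sorted by their promoter letters. Of 76 such genes with a RefSeq window, 36 had an ISRE core in at least 1 window. Of these 36, 7 rose (SOCS1, IFIH1, TLR3, PLSCR1, GBP3, CXCL10 and WARS1), 3 fell (DDX60L, IFITM1 and HERC5) and 26 did not pass, with a median log2 difference of 0.03. Of the 40 without it, 8 rose and 1, IRF5, fell, with a median of 0.11. Of 16 genes with an NF-kB site, 4 rose (IFNGR1, IFNGR2, IFIH1 and CXCL10), and of 60 without one, 11 rose and 4 fell. Of 18 genes with a GAS, 5 rose and 1 fell, and of 58 without one, 10 rose and 3 fell. These are counts by limma at an adjusted p of 0.05, and the difference between the classes was not tested. With an ISRE core 27.8% were called and without it 22.5%. For the GAS the shares were 33.3% and 22.4%, and for the NF-kB site 25% and 25%. Among all genes 21.8% were called, where 9.58% rose and 12.2% fell. The called genes IRF2, SLFN5, RNF135 and IFIT2 had no window among those searched.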
